A study of Oryza sativa with 6 samples.

Results

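The DAHP synthase family of rice was described here in leaves of plants sprayed with glyphosate and of plants left unsprayed. DAHP synthase is 3-deoxy-D-arabino-heptulosonate 7-phosphate synthase, which gene tables also call phospho-2-dehydro-3-deoxyheptonate aldolase. The members were all entries of the deposited gene table whose description holds that second name, 4 of 35018 entries: LOC_Os03g27230, LOC_Os07g42960, LOC_Os08g37790 and LOC_Os10g41480. The rule uses the description and no expression value, although it was set with earlier results of these data known.

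All 6 libraries came from leaves of CA21, a non-transgenic glyphosate-tolerant rice line. It was bred from the cultivar Zhejing30 by radiation and ethyl methane sulfonate mutagenesis, followed by generations of crossing and backcrossing with the glyphosate-sensitive line P1003. The GLY group (GLY1, GLY2 and GLY3) held 3 libraries of CA21 seedlings sprayed with glyphosate at 2 mg/ml at the third-leaf stage, and the CK group (CK1, CK2 and CK3) held 3 libraries of CA21 without spray. Leaves were taken once the P1003 plants had died, and no untreated or treated sensitive line is among these libraries, so both groups share the mutagenized background. The labels give 3 replications per group but do not say whether each library came from its own plants or its own container, so the p values measure the spread between these libraries.

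DAHP synthase carries out the first committed step of the shikimate pathway, in which phosphoenolpyruvate and erythrose 4-phosphate are joined in the plastid. The pathway leads through shikimate and chorismate to phenylalanine, tyrosine and tryptophan, and from phenylalanine to lignin and other phenolic compounds. Glyphosate blocks a later enzyme of the same pathway, 5-enolpyruvylshikimate 3-phosphate synthase (EPSPS), by competing with phosphoenolpyruvate, and shikimate then accumulates. In Arabidopsis, the genes of this family differ from one another in their response to wounding and pathogens.

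Values are FPKM, the fragments of a gene divided by its length and by the mapped fragments of its library. The mapped depth that the values imply, taken as coverage divided by FPKM, was 3.84 to 4.40 Gb in the GLY libraries and 3.43 to 3.80 Gb in the CK libraries, without overlap. It is not a count of reads. The totals of cleaned reads listed in the study are larger and lower in GLY than in CK, and the reason for the difference was not tested. Tests were made with limma on log2(FPKM + 1) for the 19316 entries whose mean reached 0.5 FPKM. On this scale the change of a scarce gene comes out smaller than its ratio. The median log2 fold change of these entries was 0.20, and it was -0.01 after division by median-of-ratios factors, which were 1.10 to 1.13 in the GLY libraries and 0.88 to 0.91 in the CK libraries. Rubisco small subunit and chlorophyll a/b-binding protein genes, which mark leaf mesophyll, were abundant in sum in all libraries, and 18 of their 20 entries were above 0 in all of them. Of the 20 entries 19 were tested. At an adjusted p under 0.05 in limma, 2 were higher and 7 lower in GLY, beside 19.3% and 5.65% of all tested entries. The summed FPKM of the 20 entries was 28842 to 40558 in GLY against 48625 to 53723 in CK. Seed storage protein genes, which mark another tissue, summed to 1.02 to 1.50 FPKM in GLY and 0.275 to 0.478 FPKM in CK over 8 entries, of which 1 was above 0 in all libraries. Cyclin-A1 and B-type cyclin-dependent kinase genes, which mark dividing cells, summed to 10.4 to 11.4 FPKM in GLY and 8.09 to 11.7 FPKM in CK over 5 entries. Of these 3 were tested, with 0 called by limma and 1 at an unadjusted p under 0.05. The part of these shifts in the results for the family was not tested. In RNA of whole leaves, fewer cells of a type and less RNA per cell cannot be told apart.

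The 4 DAHP synthase genes did not all change in the same direction between CK and GLY. LOC_Os03g27230 and LOC_Os07g42960 rose to more than their CK level in every GLY library, LOC_Os10g41480 fell, and LOC_Os08g37790, the most abundant member, did not pass the test, although with a library-size covariate described further on no member passed and the signs of LOC_Os08g37790 and LOC_Os10g41480 turned. All 4 members passed the filter on low values by their mean in each group. At an adjusted p under 0.05, 2 of the 4 were higher in GLY, beside 19.3% of all tested entries, and 1 was lower, beside 5.65%. At the threshold named in the study's methods, a log2 fold change of 1 or more in size with an unadjusted P under 0.05, the same 2 members were higher, beside 6.58% of all tested entries, and none of the 4 was lower, beside 2.4%. No test of these member counts was made. The study, which names the count model DESeq, reported nearly equal numbers of genes up and down at its threshold.

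LOC_Os03g27230 lies on the plus strand at chr3:15603830-15608753, with 1 listed transcript of 5 exons and 2117 bases. Coordinates are those of the deposited transcript table, on the Nipponbare assembly that the study's methods name as IRGSP build 5.0. Its level was 14.5, 14.4 and 12.1 FPKM in GLY1, GLY2 and GLY3, against 4.63, 3.46 and 3.35 FPKM in CK1, CK2 and CK3. The groups did not overlap, and the lowest GLY library stood 2.61 times as high as the highest CK library. Groups without overlap and with GLY higher were found in 34.3% of all tested entries. The mean was 13.7 ± 1.36 FPKM in GLY and 3.82 ± 0.706 FPKM in CK (SD, n = 3 each), a ratio of 3.58. The log2 fold change was 1.61 (SE 0.14, 95% interval 1.27 to 1.96), with an adjusted p of 0.00172 in limma with Benjamini-Hochberg adjustment. Of all tested entries, 97.9% had a smaller log2 fold change.

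LOC_Os07g42960 lies on the minus strand at chr7:25726418-25730181 and has 2 listed transcripts. Its level was 39.6, 36.6 and 23.4 FPKM in GLY1, GLY2 and GLY3, against 10.2, 13.0 and 8.30 FPKM in CK1, CK2 and CK3. All GLY libraries were above all CK libraries, with the lowest GLY value 1.81 times the highest CK value, and replicate 3 was the lowest of its group in both. The mean was 33.2 ± 8.58 FPKM in GLY and 10.5 ± 2.36 FPKM in CK (SD, n = 3 each), a ratio of 3.16. Its log2 fold change of 1.56 (SE 0.25, 95% interval 0.95 to 2.17) had a limma adjusted p of 0.00911. The interval is wider than that of LOC_Os03g27230, and GLY3 stood well below GLY1 and GLY2. Both rises kept their call without any one of the 6 libraries.

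LOC_Os08g37790 lies on the minus strand at chr8:23934856-23938888, with a transcript of 5 exons and 1800 bases. Its level was 50.6, 50.8 and 36.9 FPKM in GLY1, GLY2 and GLY3, against 39.2, 39.2 and 25.8 FPKM in CK1, CK2 and CK3. The groups overlapped, since GLY3 was below CK1 and CK2, and replicate 3 was again the lowest of each group. The mean was 46.1 ± 7.98 FPKM in GLY and 34.7 ± 7.72 FPKM in CK (SD, n = 3 each), a ratio of 1.33. The log2 fold change was 0.41 (SE 0.21, 95% interval -0.12 to 0.94), with a limma adjusted p of 0.219. The upper end of that interval lies below the estimates for LOC_Os03g27230 and LOC_Os07g42960, and the lower end lies below 0. After median-of-ratios scaling its log2 fold change was 0.12 (limma adjusted p = 0.737).

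LOC_Os10g41480 lies on the minus strand at chr10:22289945-22293566, with a transcript of 5 exons and 1619 bases. It is the scarce member, at 0.846, 0.558 and 0.520 FPKM in GLY1, GLY2 and GLY3, against 1.44, 1.44 and 1.87 FPKM in CK1, CK2 and CK3. Every GLY library was below every CK library, and the highest GLY value was 0.586 times the lowest CK value. Such a separation downwards was seen in 10.6% of all tested entries. The mean was 0.641 ± 0.178 FPKM in GLY and 1.59 ± 0.247 FPKM in CK (SD, n = 3 each), a ratio of 0.404. On the log2(FPKM + 1) scale it fell by 0.66 (SE 0.14, 95% interval -1.0 to -0.31, limma adjusted p = 0.022), and with a pseudocount of 0.1 the log2 fold change was -1.20. The call is a close one, since the limma adjusted p was 0.0515 without CK1, 0.0626 without CK3, 0.0661 without GLY2 and 0.0557 without GLY3. The read coverage behind it was also thin, at 1.99 to 3.72 reads per base in GLY and 4.95 to 6.95 in CK, against 95.8 to 223 over the libraries for LOC_Os08g37790.

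**Figure D1:**
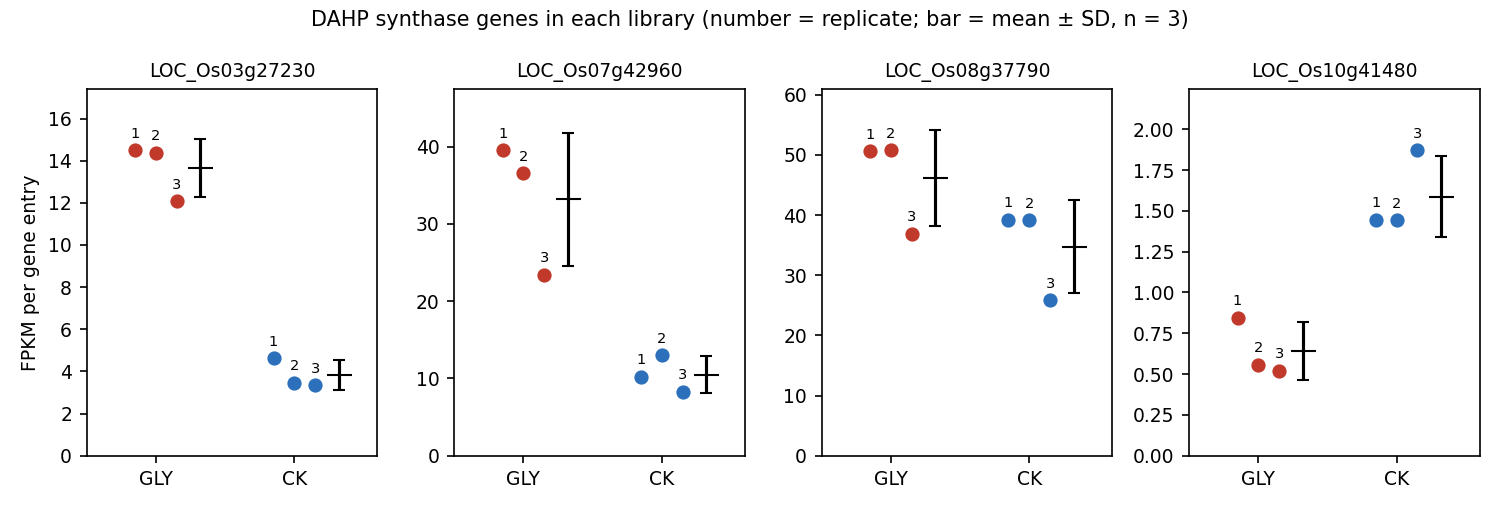
FPKM of the 4 DAHP synthase genes in each library, 1 panel per gene with its own axis from 0. Red points are GLY and blue points CK, the number is the replicate, and the bar is the mean ± SD (n = 3). GLY points lie above CK points for LOC_Os03g27230 (12.1 to 14.5 against 3.35 to 4.63 FPKM) and LOC_Os07g42960 (23.4 to 39.6 against 8.30 to 13.0 FPKM), overlap them for LOC_Os08g37790, and lie below them for LOC_Os10g41480 (0.520 to 0.846 against 1.44 to 1.87 FPKM).

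The plot of values by library shows these patterns side by side. The changes were set against the shift of all tested entries. Relative to the median of all tested entries, the log2 fold changes were 1.41 for LOC_Os03g27230, 1.36 for LOC_Os07g42960, 0.21 for LOC_Os08g37790 and -0.86 for LOC_Os10g41480. With median-of-ratios scaling they were 1.35, 1.28, 0.12 and -0.81 in the same order of genes, and the 3 called members kept their calls, with limma adjusted p values of 0.00285 for LOC_Os03g27230, 0.0181 for LOC_Os07g42960 and 0.0144 for LOC_Os10g41480. Of all tested entries 10% were then called higher and 10.1% lower, in place of 19.3% and 5.65%. With the library-size covariate of the Ballgown program in the model, which had a correlation of 0.988 with the treatment, none of the 4 was called and the estimates were 0.19 for LOC_Os03g27230, 1.65 for LOC_Os07g42960, -0.77 for LOC_Os08g37790 and 0.036 for LOC_Os10g41480. That linear model called 0 entries in all at an adjusted p under 0.05 and 1298 at an unadjusted p under 0.05, and the covariate and the treatment cannot be told apart in it.

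**Figure D2:**
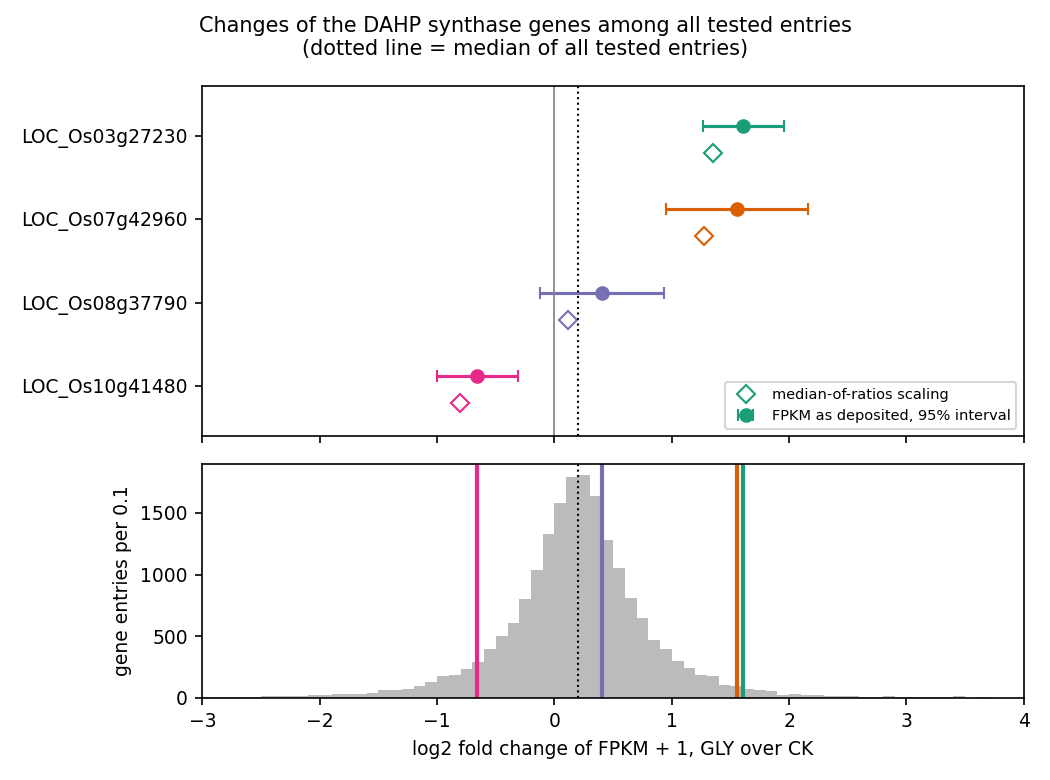
Log2 fold change of FPKM + 1, GLY over CK, for the 4 genes (upper panel, filled circles with 95% intervals, open diamonds after median-of-ratios scaling) and the number of gene entries per 0.1 of log2 fold change among the 19316 tested (lower panel, with the 4 genes as coloured lines). The dotted line is the median of all tested entries, 0.20. LOC_Os03g27230 (1.61) and LOC_Os07g42960 (1.56) lie in the upper tail, LOC_Os08g37790 (0.41) near the middle and LOC_Os10g41480 (-0.66) in the lower tail. The signs of LOC_Os08g37790 and LOC_Os10g41480 turned with the Ballgown covariate, which is not drawn.

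FPKM is divided by length, so the levels of the 4 genes can be ranked. The order was the same in both groups: LOC_Os08g37790, LOC_Os07g42960, LOC_Os03g27230 and LOC_Os10g41480, from the highest to the lowest. In GLY the ranges of the top pair met, because LOC_Os08g37790 in GLY3 (36.9 FPKM) was below LOC_Os07g42960 in GLY1 (39.6 FPKM), although LOC_Os08g37790 was the higher of the pair within each library. In CK no neighbouring ranges met. By mean level over the 6 libraries, LOC_Os08g37790 was above 95.5% of tested entries, LOC_Os07g42960 above 91.8%, LOC_Os03g27230 above 79.2% and LOC_Os10g41480 above 21.6%.

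The summed level of the family was 105.6, 102.3 and 73.0 FPKM in GLY1, GLY2 and GLY3, against 55.5, 57.0 and 39.3 FPKM in CK1, CK2 and CK3. All GLY sums were above all CK sums, and replicate 3 gave the lowest sum in each group. The mean sum was 93.6 ± 18.0 FPKM in GLY and 50.6 ± 9.81 FPKM in CK (SD, n = 3 each), a ratio of 1.85. Of the difference of 43.0 FPKM between the mean sums, LOC_Os07g42960 made up 22.7, LOC_Os08g37790 11.4 and LOC_Os03g27230 9.84, while the part of LOC_Os10g41480 was -0.946.

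The make-up of the sum differed between the groups as well. LOC_Os08g37790 held 48.0%, 49.7% and 50.6% of the family sum in GLY1, GLY2 and GLY3, against 70.7%, 68.6% and 65.6% in CK1, CK2 and CK3. LOC_Os07g42960 held 35.1 ± 2.73% in GLY and 20.8 ± 2.20% in CK, and LOC_Os03g27230 held 14.8 ± 1.55% in GLY and 7.64 ± 1.36% in CK (SD, n = 3 each). The share of LOC_Os10g41480 was 0.686 ± 0.130% in GLY and 3.30 ± 1.27% in CK (SD, n = 3 each). For each of the 4 shares the groups did not overlap. Among single tested entries, 34.3% separated with GLY higher and 10.6% with GLY lower. The shares of a library make up its whole family sum, so the 4 separations are not independent. How often shares separate in other families was not counted. The 4 shares do not depend on the scaling of a library, since every gene in it is divided by the same factor.

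**Figure D3:**
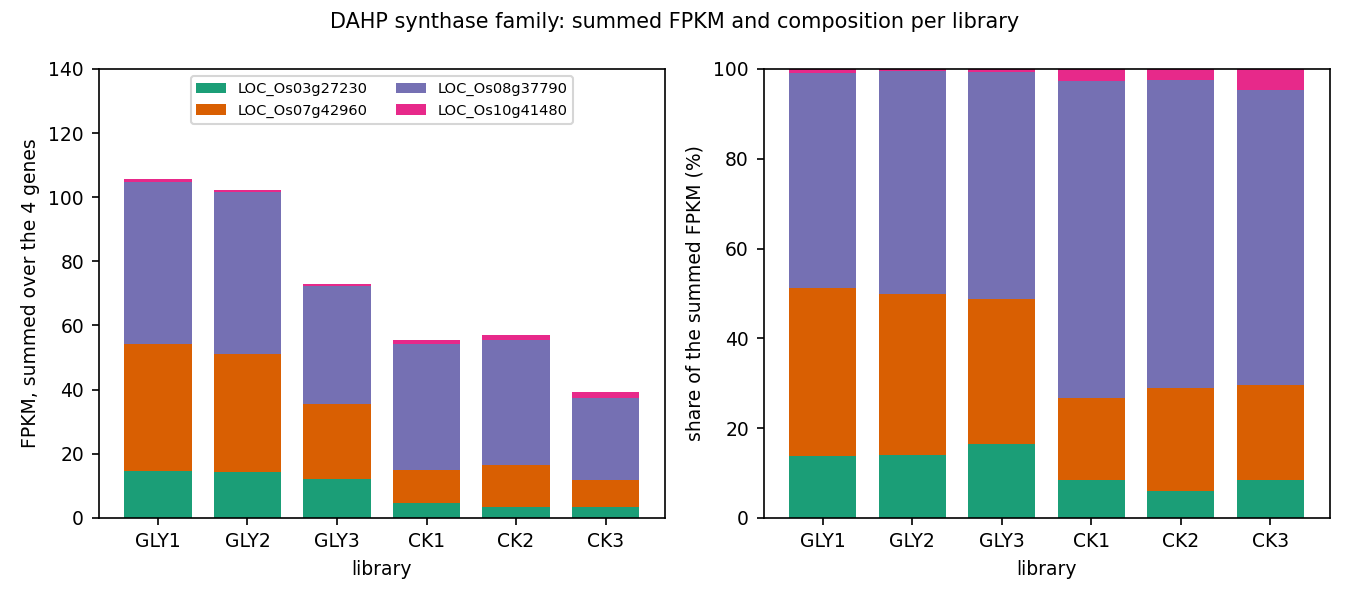
Summed FPKM of the 4 DAHP synthase genes in each library (left) and the share of each gene in that sum in percent (right), with the GLY libraries left of the CK libraries. The sum is 73.0 to 105.6 FPKM in GLY and 39.3 to 57.0 FPKM in CK. LOC_Os08g37790 takes 48.0% to 50.6% of it in GLY and 65.6% to 70.7% in CK.

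The shift between members was tested pair by pair on the log2 ratio of their FPKM + 1 within each library, with an exact permutation test over the 6 libraries. For 3 libraries against 3 the smallest two-sided p is 0.1, so no pair could pass 0.05. LOC_Os03g27230 against LOC_Os07g42960 had a mean log2 ratio of -1.19 ± 0.26 in GLY and -1.25 ± 0.35 in CK (SD, n = 3 each), a difference of 0.05, and the groups overlapped (exact p = 0.9, adjusted over the 6 pairs 0.9). In the other 5 pairs the groups did not overlap, and each had an exact p of 0.1 (adjusted 0.12). The pairs have genes in common, so they are not independent. LOC_Os03g27230 gained 1.20 and LOC_Os07g42960 gained 1.15 on LOC_Os08g37790 in GLY, both on the log2 scale. LOC_Os08g37790 in turn gained 1.07 on LOC_Os10g41480. The widest shifts were those of LOC_Os03g27230 (2.27) and LOC_Os07g42960 (2.22) against LOC_Os10g41480.

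The transcripts at the 4 loci were tested in a fit of their own over 32646 transcripts, with changes in the same directions as the gene entries and higher adjusted p values. The transcript of LOC_Os03g27230 is its whole gene entry, and its rise of 1.61 was called in the transcript fit as well (limma adjusted p = 0.00846), although not with the replicate number as a block (0.0718) or with the Ballgown covariate (0.941). At 46.3 to 63.8 reads per base in GLY and 12.4 to 15.9 in CK, its coverage was well above that of LOC_Os10g41480. The transcript of LOC_Os08g37790 had a limma adjusted p of 0.342. The transcript of LOC_Os10g41480 was not called here (limma adjusted p = 0.104), although its FPKM equals that of the gene entry. Its SE was 0.19 in the transcript fit and 0.14 in the gene fit, and its unadjusted p was 0.0125 in the transcript fit and 0.00353 in the gene fit. Among all transcripts 4.4% were called higher and 1.79% lower, in place of 19.3% and 5.65% of gene entries.

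LOC_Os07g42960 was the member with alternative transcripts in the table. LOC_Os07g42960.1 has 5 exons and 2139 bases, and LOC_Os07g42960.2 has 4 exons and 1475 bases and starts 757 bases further downstream. The longer transcript stood at 39.6, 37.1 and 24.1 FPKM in GLY1, GLY2 and GLY3, against 10.7, 13.4 and 8.24 FPKM in CK1, CK2 and CK3. Its groups did not overlap, as for 22.3% of tested transcripts with GLY higher, and its log2 fold change of 1.55 (SE 0.26) had a limma adjusted p of 0.0271. That call was lost in 5 of the 6 fits that left out 1 library, where the adjusted p ranged between 0.033 (without GLY3) and 0.0894 (without GLY2), and with the filter on low values removed (0.0501).

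The shorter transcript stood at 2.42, 1.58 and 0.521 FPKM in GLY1, GLY2 and GLY3, against 0.00434, 0.192 and 0.607 FPKM in CK1, CK2 and CK3. GLY3 was below CK3, so the groups overlapped, and the log2 fold change of 0.93 had a limma adjusted p of 0.202. Its share of the summed FPKM of the 2 transcripts was 5.75%, 4.10% and 2.11% in GLY1, GLY2 and GLY3, against 0.0407%, 1.41% and 6.86% in CK1, CK2 and CK3. The share was thus lowest in CK1 and highest in CK3, and the longer transcript made up at least 93.1% in every library. The 2 transcripts share most of their exonic bases, so the division of reads between them is an estimate of the assembly program.

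An antisense transcript lay across LOC_Os08g37790. MSTRG.25093.1 is an assembled transcript of 1 exon and 210 bases on the plus strand at chr8:23938215-23938424, antisense to the gene. It was listed at 0, 0 and 2.15 FPKM in GLY1, GLY2 and GLY3, against 0, 0 and 0.352 FPKM in CK1, CK2 and CK3. It thus appeared in the third replicate of each group alone, and its mean was under the filter, so it was not tested. Whether reads were assigned by strand is not given in the sources used here, and without strand the reads of a gene and of its antisense partner cannot be told apart. A further entry, LOC_Os07g45430, carries the enzyme number of DAHP synthase in the table but is described as an expressed protein and falls outside the rule. It was listed at 0 in all libraries except CK1 (0.0683 FPKM).

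The profiles of other genes were compared with those of the members by the root mean square difference of log2(FPKM + 1) over the 6 libraries, after each profile was centred on its mean. The 6524 annotated entries with a mean of at least 5 FPKM served as candidates. Among the members, LOC_Os03g27230 and LOC_Os07g42960 were the most alike, with a difference of 0.25, and each was 1.15 from LOC_Os10g41480. The next nearest pair was LOC_Os07g42960 and LOC_Os08g37790, at 0.59.

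The entries most like LOC_Os03g27230 were a nucleobase-ascorbate transporter (LOC_Os09g21340, 0.09), an acyl-protein thioesterase (LOC_Os01g07960, 0.10) and a Myb transcription factor (LOC_Os01g09640, 0.11), against a median of 0.79 over the candidates. Those most like LOC_Os07g42960 were the cellulose synthase CESA1 (LOC_Os05g08370, 0.13), the beta-glucosidase-like Os1bglu4 (LOC_Os01g67220, 0.13) and an entry described as a transketolase that carries the enzyme number of pyruvate dehydrogenase E1 in the table (LOC_Os03g44300, 0.14), with a median of 0.80. Those most like LOC_Os08g37790 were a THAP domain protein (LOC_Os01g48760, 0.05) and the undescribed entries LOC_Os02g02270 (0.08) and LOC_Os01g59900 (0.09), with a median of 0.37. Those most like LOC_Os10g41480 were the large subunit of glucose-1-phosphate adenylyltransferase, an enzyme of starch synthesis (LOC_Os07g13980, 0.04), an amine oxidase (LOC_Os04g57560, 0.05) and the undescribed LOC_Os05g38040 (0.07), with a median of 0.49. In FPKM the ratio of GLY to CK was 0.404 for LOC_Os10g41480, against 0.626, 0.637 and 0.570 for these entries in the same order. The log2(FPKM + 1) scale shortens the change of a scarce gene, so this likeness holds on that scale. The points are libraries of 2 groups, so the measure takes in the difference between GLY and CK as well as the spread within each group.

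The steps around DAHP synthase were described with 5 lists of genes chosen by their descriptions. Each count on the deposited values stands beside the 19.3% of tested entries called higher and the 5.65% called lower. Counts after median-of-ratios scaling stand beside 10% called higher and 10.1% called lower. The list of substrate supply was drawn up for enolase, which makes phosphoenolpyruvate, transketolase, which forms erythrose 4-phosphate, and the translocators that carry phosphoenolpyruvate into the plastid. Of the 7 entries described as transketolase, however, 2 carry the enzyme number of transketolase in the table, 4 that of pyruvate dehydrogenase E1 and 1 that of 1-deoxyxylulose 5-phosphate synthase, an enzyme of isoprenoid synthesis. Of the 12 entries of the list 11 were tested, 5 were higher and 2 lower in GLY, with a median log2 fold change of 0.37 against 0.20 over all tested entries. After median-of-ratios scaling the count was 3 higher and 4 lower. Of the calls on the deposited values, 3 higher and 1 lower were entries with the other enzyme numbers. Without these, 6 entries were tested, with 2 higher (an enolase and a translocator) and 1 lower (an enolase). After median-of-ratios scaling the higher enolase lost its call (limma adjusted p = 0.408), while the higher translocator kept it (0.0473). The translocator LOC_Os01g07730 was then called lower (limma adjusted p = 0.0245). LOC_Os03g44300, one of the entries with the number of pyruvate dehydrogenase E1, had the largest rise of the list, with 8.21 ± 1.11 FPKM in GLY and 2.12 ± 0.457 FPKM in CK (log2 fold change 1.56, limma adjusted p = 0.00238). LOC_Os12g42230, with the same enzyme number, had the largest fall, with 13.9 ± 2.65 FPKM in GLY and 40.0 ± 2.35 FPKM in CK (log2 fold change -1.47, limma adjusted p = 0.00258). The most abundant entry, LOC_Os06g04270, carries the number of transketolase and stood at 531.5 ± 161.1 FPKM in GLY and 811.0 ± 50.4 FPKM in CK, without overlap of the groups (log2 fold change -0.66, limma adjusted p = 0.107; SD, n = 3 each). After median-of-ratios scaling LOC_Os06g04270 was called lower (log2 fold change -0.96, limma adjusted p = 0.0418).

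The shikimate core list covers steps that follow DAHP synthase on the way to chorismate. Chorismate synthase was part of the wording but matched no entry, so that step is not in the list. Of its 8 entries 7 were tested, 2 were higher and 0 lower in GLY by limma under both scalings (0 lower also at an unadjusted p under 0.05 on the deposited values), with a median log2 fold change of 0.38 (0.15 after median-of-ratios scaling). EPSPS, the enzyme that glyphosate inhibits (LOC_Os06g04280), stood at 11.0, 11.6 and 10.1 FPKM in GLY1, GLY2 and GLY3, against 4.78, 4.48 and 2.87 FPKM in CK1, CK2 and CK3. It had the largest rise of the list, with a log2 fold change of 1.26 (limma adjusted p = 0.00612), between that of LOC_Os08g37790 and those of the up-regulated DAHP synthase genes. The study reported otherwise for EPSPS: a transcript of this gene showed an increasing trend but did not pass its preset threshold. The study names another model, DESeq, and the reason for the difference was not tested. The bifunctional dehydroquinate dehydratase and shikimate dehydrogenase LOC_Os12g34874 rose by 0.79 on the log2 scale (limma adjusted p = 0.00377). The most abundant entry, the 3-dehydroquinate synthase LOC_Os09g36800, which acts directly after DAHP synthase, stood at 42.1 ± 6.05 FPKM in GLY and 38.2 ± 3.98 FPKM in CK, and its groups overlapped (SD, n = 3 each; log2 fold change 0.13, limma adjusted p = 0.527, and -0.16 after median-of-ratios scaling).

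Past chorismate the pathway divides. In the phenylalanine and tyrosine branch 8 entries were listed and 6 tested, with a median log2 fold change of 0.40. Limma called 0 of them at an adjusted p under 0.05 under either scaling, and 2 had an unadjusted p under 0.05 on the deposited values. A linear model without moderation of variances called 1. The most abundant of them, the chorismate mutase LOC_Os01g55870, stood at 15.5 ± 3.31 FPKM in GLY and 14.5 ± 0.666 FPKM in CK, with overlapping groups (SD, n = 3 each). The prephenate dehydratase domain gene LOC_Os04g33390 stood at 9.31, 10.5 and 10.6 FPKM in GLY1, GLY2 and GLY3, against 6.10 and 6.35 FPKM in CK1 and CK3, and was listed at 0 in CK2. Without CK2 it was called (limma adjusted p = 0.0219). Entries with the enzyme number of prephenate dehydratase but another description lie outside this list. Of these LOC_Os07g49390 (log2 fold change 1.45, limma adjusted p = 0.000619) and LOC_Os01g34450 (0.66, adjusted p = 0.0352) were called higher. After median-of-ratios scaling LOC_Os01g34450 was not called (limma adjusted p = 0.0627). Aminotransferases were not part of the wording either. In the tryptophan branch 15 entries were listed and 10 tested, with 2 higher, 0 lower and a median of 0.35. Both were beta chains of tryptophan synthase, LOC_Os08g04180 (log2 fold change 0.51, limma adjusted p = 0.0137) and LOC_Os06g42560 (0.68, adjusted p = 0.0204). Of the listed entries described as anthranilate phosphoribosyltransferase, LOC_Os03g03450 alone carries the number of that enzyme. LOC_Os07g07070 and LOC_Os01g40480 carry numbers of protein kinases and the rest carry none, so the count and median may take in genes outside the branch. None of these entries was called on the deposited values. The difference between the branches was not tested. After median-of-ratios scaling neither beta chain was called (limma adjusted p = 0.157 for LOC_Os08g04180 and 0.0934 for LOC_Os06g42560).

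Phenylalanine ammonia-lyase, which leads from phenylalanine into phenolic compounds, had 6 entries and 5 tested, with 4 higher, 1 lower and a median log2 fold change of 1.33. After median-of-ratios scaling 3 were higher and 1 lower, with a median of 1.06. LOC_Os02g41650, the most abundant, stood at 165.1 ± 1.89 FPKM in GLY and 69.2 ± 11.1 FPKM in CK (SD, n = 3 each; log2 fold change 1.25, limma adjusted p = 0.00296). LOC_Os02g41630 had the largest rise, to 106.1 ± 12.5 FPKM in GLY against 14.9 ± 1.34 FPKM in CK (SD, n = 3 each; log2 fold change 2.75, limma adjusted p = 0.000267). LOC_Os02g41680 fell by 0.28 on the log2 scale (limma adjusted p = 0.0487). The 6 fits that left out 1 library each called 3 to 4 of these genes in place of 5. LOC_Os02g41630, LOC_Os02g41650, LOC_Os02g41670 and LOC_Os02g41680 lie close together by number and carry the same description, and how reads that map to several genes were shared is not given in the sources used here.

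**Figure D4:**
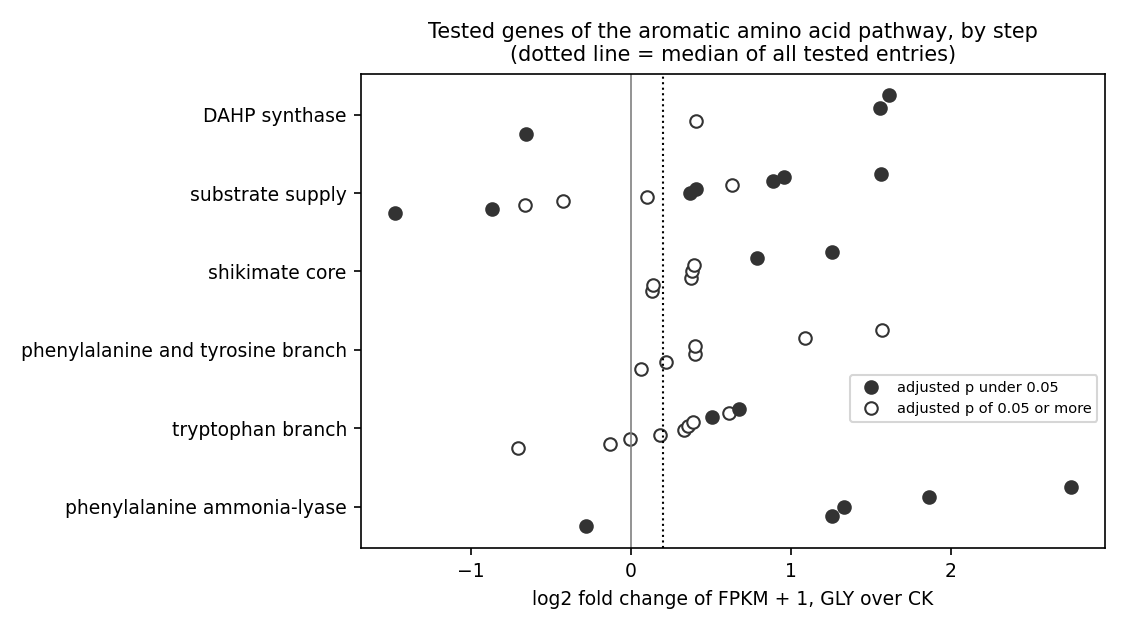
Log2 fold change of FPKM + 1, GLY over CK, for each tested gene of the DAHP synthase family and of the 5 lists, with DAHP synthase in the top row and the lists under it, from substrate supply down to phenylalanine ammonia-lyase. Filled points had an adjusted p under 0.05 and open points did not, and the dotted line is the median of all tested entries, 0.20. DAHP synthase spans -0.66 to 1.61 with filled points at both ends (the sign of the lowest turned with the Ballgown covariate), and the shikimate core has 2 filled points, at 0.79 and 1.26.

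The plot of pathway steps shows that members of one step did not move as a block. DAHP synthase, substrate supply (its enolase entries alone as well) and phenylalanine ammonia-lyase each held genes called in both directions, whereas the called genes of the shikimate core and the tryptophan branch were higher in GLY. After median-of-ratios scaling the enolase entries were called in the lower direction alone, and the tryptophan branch had 0 called higher and 1 called lower. The lists share samples and a fit with the family, and no test of one step against another was made.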

How the data were processed

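Leaf RNA depleted of ribosomal RNA was sequenced as paired-end reads in 3 GLY and 3 CK libraries. According to the study's methods, the authors cleaned the reads, mapped them with Bowtie 2 and TopHat2, assembled transcripts with StringTie and quantified them with Ballgown. The authors deposited FPKM per gene entry and per transcript in a column for each library, which are normalized for length and mapped fragments. They also deposited read coverage per base of each transcript, a signal not divided by depth, and the mapped depth of each library was taken as the ratio of coverage to FPKM. Entries at 0 in all libraries are not in the tables, and 80 entries had at least 5 FPKM in 5 libraries and 0 in the other, so an exact 0 is given as listed at 0. The methods name DESeq, a count model that was not used on FPKM values. No counts were used, so precision rests on the spread of 3 libraries per group.

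log2(FPKM + 1) was fitted over all entries whose mean reached 0.5 FPKM with limma 3.58.1 (lmFit, eBayes with trend, two-sided, group as the one term) in R 4.3.3, and p values were adjusted by Benjamini-Hochberg over all tested entries. Transcripts were fitted separately. The fit was tested on simulated data. The words rose and fell are used at an adjusted p under 0.05. Named from each list were the member with the highest mean, the largest rise and the largest fall among called genes, and EPSPS, and for likeness the 3 nearest entries. LOC_Os12g34874, LOC_Os04g33390, LOC_Os02g41670, LOC_Os07g45430, LOC_Os01g07730, LOC_Os01g34450, LOC_Os03g03450, LOC_Os07g07070, LOC_Os01g40480 and all genes of the closing observations were named after their values were seen. Members and lists were chosen with earlier results of these data known. The translocator wording first set matched no entry and was replaced by that of the table, as was the wording for dividing cells. The labels give no batch. Alternatives were median-of-ratios scaling, the Ballgown covariate, a replicate block, no moderation of variances, a pseudocount of 0.1, a higher minimum of 1 FPKM or none, and leaving out each library. No sequences are given, because no sequence of these genes was used here.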

Additional observations from a re-analysis of the deposited data

How the results depend on the processing

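LOC_Os03g27230 and LOC_Os07g42960 kept direction and call under 12 of the 13 alternatives, and LOC_Os08g37790 stayed without a call under all 13. The exception was the Ballgown library-size covariate, which gave 0.19 for LOC_Os03g27230 and 1.65 for LOC_Os07g42960 without a call, and reversed estimates of -0.77 for LOC_Os08g37790 and 0.036 for LOC_Os10g41480. With it the transcripts gave 0.55 for LOC_Os03g27230.1, 1.28 for LOC_Os07g42960.1, and reversed estimates of -0.75 for LOC_Os08g37790.1 and 0.12 for LOC_Os10g41480.1. It left 0 gene entries called in either direction at the adjusted threshold, 0 members in each list, and 662 entries past the fold threshold and higher. LOC_Os10g41480 lost its call without the filter on low values (-0.66, limma adjusted p = 0.0563), and LOC_Os07g42960.1 lost its own without the filter (1.55, limma adjusted p = 0.0501) and without moderation of variances (1.55, adjusted p = 0.0688). The cause was not tested.

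Leaving out 1 library gave log2 fold changes of 1.54 to 1.73 for LOC_Os03g27230, 1.41 to 1.78 for LOC_Os07g42960, 0.21 to 0.56 for LOC_Os08g37790, -0.75 to -0.58 for LOC_Os10g41480 and 1.38 to 1.76 for LOC_Os07g42960.1. It gave 2345 (without GLY2) to 2915 entries called higher, and the lowest but one was 2434 (without CK3), in place of 3725. Members called were 0 to 1 in the phenylalanine and tyrosine branch, 1 to 2 in the tryptophan branch and 3 to 4 for phenylalanine ammonia-lyase.

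With median-of-ratios scaling 1935 entries were called higher and 1947 lower at the adjusted threshold, 815 higher and 768 lower past the fold threshold, and 1 gene in the tryptophan branch. A pseudocount of 0.1 gave 2491 higher and 736 lower past the fold threshold. Without moderation 1 gene of the phenylalanine and tyrosine branch was called.

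The replicate numbers of GLY and CK share no stated origin. The correlation of deviations from the group means was 0.00348, 0.00993 and 0.006 for replicates 1, 2 and 3, so the numbers were not taken as pairs. With the replicate block 1846 entries were called higher and 616 lower, the limma adjusted p was 0.0815 for LOC_Os10g41480 (-0.66), 0.0719 for LOC_Os07g42960.1 (1.55) and 0.0718 for LOC_Os03g27230.1 (1.61), and the lists had 3 called genes for phenylalanine ammonia-lyase, 4 for substrate supply and 0 for the tryptophan branch. LOC_Os08g37790 (0.41) stayed without a call, although its limma adjusted p was 0.0673 with the block in place of 0.219.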

Other observations

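The genes next to the DAHP synthase loci were looked up by position, after the values of the family had been seen. LOC_Os10g41490, annotated as a calcium/calmodulin-dependent type protein kinase, begins 1166 bases from LOC_Os10g41480 and rose while LOC_Os10g41480 fell. It stood at 19.8, 19.2 and 18.3 FPKM in GLY1, GLY2 and GLY3, against 5.98, 6.16 and 6.15 FPKM in CK1, CK2 and CK3, and its log2 fold change was 1.50 (limma adjusted p = 0.000414). Kinase entries of the same broad class that were not called neighbour LOC_Os07g42960 (LOC_Os07g42940, 4202 bases away, log2 fold change -0.01, limma adjusted p = 0.959) and LOC_Os08g37790 (LOC_Os08g37800, 3348 bases away, 0.12, adjusted p = 0.402). How many loci of the genome lie near such an entry was not counted. LOC_Os07g42950, a 40S ribosomal protein S6 entry, is 1248 bases from LOC_Os07g42960 and stood at 7.51 FPKM in GLY and 4.79 FPKM in CK (log2 fold change 0.53, limma adjusted p = 0.0691). The F-box gene LOC_Os03g27250, 5473 bases from LOC_Os03g27230, rose by 0.70 (limma adjusted p = 0.00465), and LOC_Os03g27190, a protease domain gene on the other side and 31694 bases away, fell by 1.32 (limma adjusted p = 0.00258). The nearest neighbours of the members thus held both called and uncalled genes.

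A wider list, the other 46 entries that the table places in the KEGG pathway of phenylalanine, tyrosine and tryptophan biosynthesis, was added after seeing the data. Of these 38 were tested, 13 were higher and 0 lower in GLY, beside 19.3% and 5.65% of all tested entries, with a median log2 fold change of 0.39. After median-of-ratios scaling 6 were higher and 2 lower, beside 10% and 10.1% of all tested entries under that scaling. The list shares genes with the shikimate core, the phenylalanine and tyrosine branch and the tryptophan branch. LOC_Os10g42700, a CS domain protein that carries the enzyme number of shikimate kinase in the table, rose to 22.6 FPKM in GLY against 6.65 FPKM in CK (log2 fold change 1.63, limma adjusted p = 0.000646). LOC_Os07g49390, described as P-protein with the enzyme number of prephenate dehydratase, rose to 9.02 FPKM in GLY against 2.66 FPKM in CK (1.45, limma adjusted p = 0.000619), although no gene of the phenylalanine and tyrosine list was called.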
